A study of Homo sapiens with 6 samples.

Results

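The genes described here are 9 that govern breakdown of the extracellular matrix: the metalloproteinases MMP1, MMP2 and MMP14, their tissue inhibitors TIMP1, TIMP2 and TIMP3, the plasminogen activators PLAU and PLAT, and the urokinase receptor PLAUR. They were chosen by name, with earlier results of these data known, as all probe sets whose platform annotation gives one of these symbols. That gave 22 of the 41091 probe sets with 1 gene symbol, for 9 of 19775 genes. Each gene is represented by its brightest probe set over the 6 arrays, and the remaining probe sets serve as a check.

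Transcript levels came from H1299 cells, an established human non-small-cell lung cancer line. All cells were infected with a lentivirus that carried an shRNA, and RNA was taken 72 hours later from cultures in 10% serum. The scramble group received a scramble shRNA, and the groups KD1 and KD2 received separate shRNAs against RBP2, now named KDM5A, a demethylase of lysine 4 on histone H3. Each group had 2 arrays. Whether the replicates came from separate cultures is not stated, and the p-values then measure the spread among these arrays alone, part or all of which may be technical. Every group was infected, so the values do not describe uninfected cells.

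Matrix proteases act outside the cell in linked cascades. Urokinase, the product of PLAU, binds the receptor encoded by PLAUR and turns plasminogen at the cell surface into plasmin, which digests fibrin and matrix and can activate latent metalloproteinases. Tissue-type plasminogen activator, encoded by PLAT, does so mainly on fibrin. MMP1 is the interstitial collagenase, MMP2 is a gelatinase that cleaves type IV and denatured collagen, and MMP14 is anchored in the membrane and activates the MMP2 proenzyme with TIMP2 as a partner. TIMP proteins occupy the active site of metalloproteinases.

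KDM5A was lower in all 4 knockdown arrays. It read 9.35 and 9.42 on the log2 scale in scramble cells, 7.42 and 7.27 with KD1, and 6.66 and 6.72 with KD2. Of the lineage markers, the keratins KRT8 and KRT18 read 9.80 to 13.2 and vimentin (VIM) 14.9 to 15.0 on all arrays. The epithelial surface genes CDH1 and EPCAM stood at or near the lowest values, at no more than 2.30, so the arrays carried keratins without these 2 epithelial markers. Markers of leukocytes (3 genes) and endothelium (4 genes) did not exceed 2.34. Among 5 fibroblast markers 4 did not exceed 2.27, and COL1A1 read 6.20 to 7.02. CD68 was not analysed here. The tested genes had medians of 8.49 to 8.56 on each array.

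A gene was tested when its mean over the 6 arrays was at least 4 on the log2 scale, and it counted as called when limma's p, adjusted by Benjamini-Hochberg over all 10526 tested genes, was under 0.05. Of the 9 genes, 7 were tested. MMP14 and TIMP3 lay below the limit, and MMP2 reached it only through its KD2 arrays.

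The 2 shRNAs moved several of these genes differently. With KD1, PLAUR and MMP1 fell, and no member rose: limma called 2 of the 7 lower and 0 higher, and at an unadjusted p under 0.05 the counts were 3 lower and 0 higher, beside 29.5% of all tested genes at that threshold. With KD2, PLAU and PLAUR fell, and MMP1, PLAT and MMP2 rose. Limma called 2 of the 7 lower and 3 higher with KD2. Across all tested genes 11.5% were called with KD1 (3.62% higher, 7.90% lower) and 31.0% with KD2 (16.7% higher, 14.4% lower). Between the shRNAs 5 of 7 members were called, 1 higher with KD1 and 4 lower, beside 41.1% of all tested genes (17.8% higher, 23.3% lower). Without MMP2 the called members were 2 of 6 with KD1, 4 of 6 with KD2 and 4 of 6 between the shRNAs. Since the members were chosen with earlier results known, these counts cannot show an excess over the shares of all genes. PLAUR was the member called lower with each shRNA taken alone, and both comparisons use the same scramble arrays. In RNA of whole cultures, fewer cells that express a gene and less RNA per cell cannot be told apart.

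**Figure D1:**
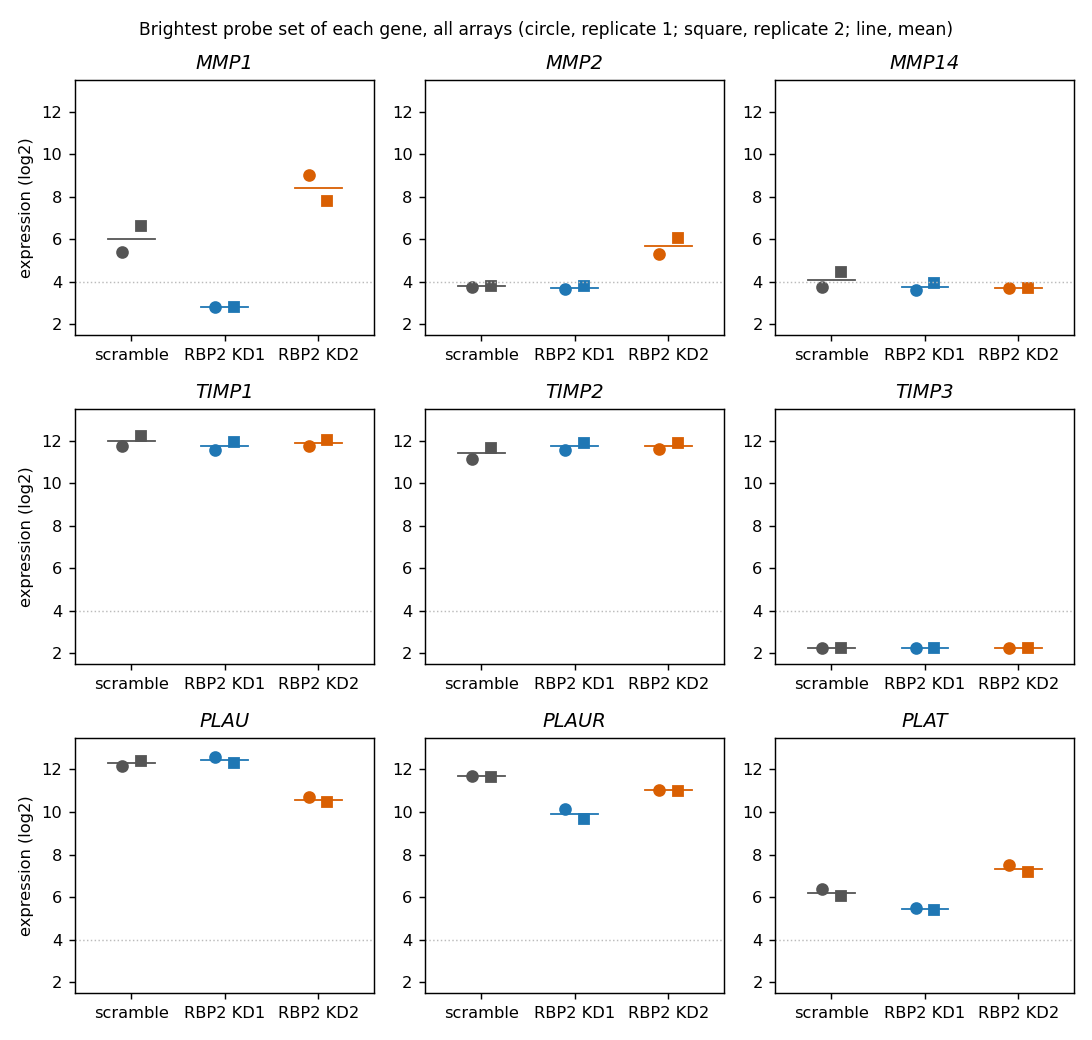
Log2 expression (vertical axes) of the brightest probe set of each of the 9 genes in scramble, KD1 and KD2 cells. Circles and squares are replicates 1 and 2, short lines are group means of 2 arrays, and the dotted line marks the filter at 4. MMP1 runs from 2.84 in KD1 cells to 9.003 in a KD2 array, TIMP1 and TIMP2 stay within 11.1 and 12.2, and TIMP3 is flat at 2.24.

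PLAU and PLAUR are the members that limma called lower with KD2, so the sequences around their start sites are shown. RefSeq windows on GRCh38.p14 span 250 bases before to 50 after each annotated start. They matched 5 of the 9 genes, with 2 starts for PLAU. MMP1, MMP2, TIMP2 and PLAT had no entry. Capitals mark matches on either strand to TGANTCA, the consensus of AP-1 factors, or to CCGCCC, a sequence that KDM5A has been described to bind. Read on the opposite strand, CCGCCC is also the core of the GC box bound by SP1, so a match to CCGCCC fits both proteins.
PLAUR, chr19:43670120-43670419, minus strand: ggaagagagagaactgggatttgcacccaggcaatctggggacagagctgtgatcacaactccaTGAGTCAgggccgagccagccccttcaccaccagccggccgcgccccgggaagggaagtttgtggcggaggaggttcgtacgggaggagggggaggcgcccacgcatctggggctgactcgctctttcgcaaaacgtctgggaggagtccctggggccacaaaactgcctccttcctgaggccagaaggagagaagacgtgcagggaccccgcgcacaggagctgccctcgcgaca
PLAU, upstream start, chr10:73910360-73910659, plus strand: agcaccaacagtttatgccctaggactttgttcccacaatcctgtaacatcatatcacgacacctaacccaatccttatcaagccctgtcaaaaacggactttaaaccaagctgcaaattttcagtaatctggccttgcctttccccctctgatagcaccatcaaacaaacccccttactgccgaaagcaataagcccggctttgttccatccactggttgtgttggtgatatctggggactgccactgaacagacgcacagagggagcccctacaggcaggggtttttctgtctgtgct
PLAU, downstream start, chr10:73910882-73911181, plus strand: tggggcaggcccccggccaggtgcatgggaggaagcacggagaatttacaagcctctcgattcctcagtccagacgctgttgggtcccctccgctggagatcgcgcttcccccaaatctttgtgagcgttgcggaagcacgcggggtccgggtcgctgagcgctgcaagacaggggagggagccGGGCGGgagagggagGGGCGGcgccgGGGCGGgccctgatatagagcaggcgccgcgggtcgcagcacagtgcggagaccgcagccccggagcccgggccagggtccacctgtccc

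The PLAUR window held 1 match to TGANTCA that began 186 bases before the start, with G at the open base, and no match to CCGCCC. The downstream PLAU window held 3 matches to CCGCCC, at 66, 51 and 40 bases before the start, and none to TGANTCA. The upstream PLAU window held neither. Of all 35116 windows of 300 bases, 7.71% held TGANTCA and 45.0% held CCGCCC. The windows of TIMP1, TIMP3 and MMP14 held 2, 5 and 1 matches to CCGCCC and none to TGANTCA. These matches describe letters only, and no binding was measured.

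PLAUR, which anchors urokinase to the cell surface, was lower with each shRNA and lowest with KD1. Its brightest probe set read 11.68 and 11.66 in scramble cells, 10.13 and 9.67 with KD1, and 11.04 and 11.00 with KD2. The groups did not overlap, and their order was scramble, KD2, KD1. Arrays of KD1 and scramble did not overlap in 53.9% of all tested genes, those of KD2 and scramble in 69.8%, and those of KD1 and KD2 in 72.8%.

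The fall of PLAUR was 3.40-fold with KD1 (log2 difference -1.77 ± 0.17, SE, limma adjusted p = 0.010) and 1.57-fold with KD2 (-0.65 ± 0.17, adjusted p = 0.044). Of all tested genes, 1.40% changed as much with KD1, and 30.7% changed as much with KD2. PLAUR was lower with KD1 than with KD2 by 2.17-fold (-1.12 ± 0.17, adjusted p = 0.0075). The other probe sets of the gene gave -1.79 and -2.22 with KD1, and -0.76 and -0.62 with KD2. All 3 therefore placed KD1 lowest. Within same-numbered arrays the KD1 difference was -1.55 and -1.98, and the KD2 difference was -0.65 and -0.66.

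In the mean of both shRNAs PLAUR fell by 1.21 ± 0.15 (adjusted p = 0.018). That is 2.31-fold, a change that 3.85% of tested genes reached. In this mean comparison 2 of 7 members were called, PLAUR and PLAU, both lower, beside 12.5% of all tested genes (5.61% higher, 6.92% lower). With the replicate number as a block, MMP2 (0.92, adjusted p = 0.020) and TIMP2 (0.34, adjusted p = 0.043) were called higher as well. MMP2 entered the test through its KD2 arrays, so its call is a description. The MMP2 mean combines -0.06 with KD1 and 1.91 with KD2. The call of PLAUR in the mean did not pass with no filter on dim genes (0.079). A fit without 1 array keeps a single array in that group, so it cannot decide a call. Only the differences of such fits are given for single genes. In the mean they ran from -1.32 to -1.09 for PLAUR.

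Over the 6 fits that left out 1 array, the PLAUR difference ranged from -0.67 to -0.63 with KD2 and from -1.99 to -1.54 with KD1. KD1 minus KD2 ranged from -1.34 to -0.89. With no filter on dim genes the fall did not pass with KD2 (limma adjusted p = 0.15) or with KD1 (0.057). The difference between the shRNAs passed with no filter (0.048).

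**Figure D2:**
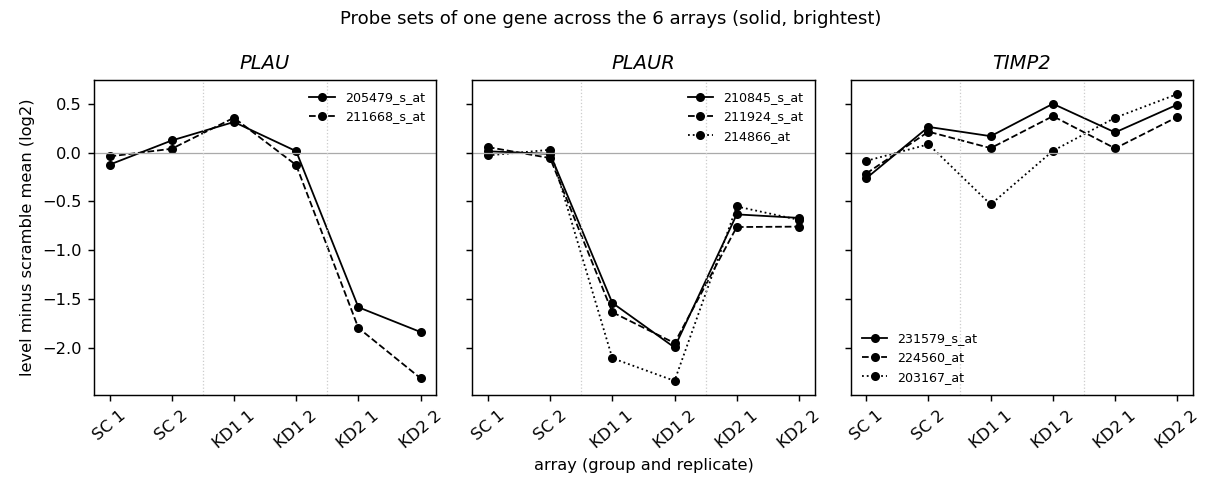
Log2 level minus the scramble mean of each probe set (vertical axis) on the 6 arrays (horizontal axis) for PLAU, PLAUR and TIMP2. Lines join the values of 1 probe set, solid for the brightest. The 3 PLAUR probe sets all fall further with KD1 than with KD2, both PLAU probe sets are lowest in the KD2 arrays, and the dimmest TIMP2 probe set departs from the other 2.

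PLAU, the urokinase gene, fell with KD2 and overlapped the scramble range with KD1. It read 12.17 and 12.41 in scramble cells, 12.60 and 12.31 with KD1, and 10.71 and 10.45 with KD2. Both KD2 arrays lay below the 4 others, and the KD1 arrays overlapped scramble. The KD2 fall was 3.27-fold (-1.71 ± 0.17, limma adjusted p = 0.0049), a change that 5.75% of tested genes reached.

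With KD1 the PLAU difference was 0.16 ± 0.17, with a 95% interval from -0.28 to 0.61 (adjusted p = 0.59). KD1 stood above KD2 by 1.87 ± 0.17, or 3.66-fold (adjusted p = 0.0021). The second probe set gave 0.11 with KD1 and -2.05 with KD2. In the 6 fits that left out 1 array the KD2 fall ranged from -1.84 to -1.58, and KD1 minus KD2 from 1.72 to 2.02. The call in the mean of both shRNAs (-0.77, adjusted p = 0.039) combines the values 0.16 and -1.71. It did not pass with no filter on dim genes (0.14). Leaving out 1 array moved this mean difference from -0.90 to -0.65.

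PLAT, the tissue-type activator, had a single probe set and was higher with KD2. It read 6.39 and 6.03 in scramble cells, 5.51 and 5.40 with KD1, and 7.49 and 7.17 with KD2. The 3 groups did not overlap, with KD1 lowest and KD2 highest. The rise with KD2 was 2.17-fold (1.12 ± 0.18, limma adjusted p = 0.013).

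With KD1 the PLAT difference was -0.76 ± 0.18 (95% interval -1.22 to -0.29), which did not pass (adjusted p = 0.063). With the replicate number as a block it did pass (adjusted p = 0.012). Between KD1 and KD2 the difference was -1.87 ± 0.18, or 3.66-fold (adjusted p = 0.0024), and leaving out 1 array moved it from -2.032 to -1.715. The KD2 rise ranged from 0.94 to 1.30 with 1 array left out, and it did not pass with no filter on dim genes (0.069). Thus PLAU and PLAT, which activate the same substrate, differed between the shRNAs in opposite directions: KD1 minus KD2 was 1.87 for PLAU and -1.87 for PLAT. In the mean of both shRNAs the PLAT values cancelled to 0.18 ± 0.16 (adjusted p = 0.49).

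MMP1, the interstitial collagenase, moved in opposite directions with the 2 shRNAs and gave the largest difference between them of the 7 tested members. It has 1 probe set, which read 5.39 and 6.64 in scramble cells, 2.84 and 2.84 with KD1, and 9.003 and 7.803 with KD2. All 3 groups were separate. The scramble arrays differed from each other by 1.26 on the log2 scale and the KD2 arrays by 1.199, whereas the KD1 arrays differed by 0.0047 and lay near the bottom of the range of the table.

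MMP1 was 9.04-fold lower with KD1 (-3.18 ± 0.55, limma adjusted p = 0.031). GCRMA compresses dim values, so this fold can understate the fall. With KD2 MMP1 was 5.23-fold higher (2.39 ± 0.55, adjusted p = 0.030). The SE pools the spread of all groups, and the dim KD1 arrays differed by only 0.0047. It may therefore understate the spread of the scramble and KD2 arrays. The difference between the shRNAs was -5.56 ± 0.55 (adjusted p = 0.0025). It also rests on the dim KD1 values, so its size is not exact and may be understated.

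Within same-numbered arrays, KD1 minus KD2 was -6.16 and -4.97, and KD2 minus scramble was 3.62 and 1.16. Leaving out 1 array moved the difference between the shRNAs from -6.16 to -4.97. With no filter on dim genes this difference passed (limma adjusted p = 0.031). Over the 6 fits that left out 1 array the KD1 fall ranged from -3.81 to -2.55, and the KD2 rise from 1.76 to 3.02. With no filter neither comparison with scramble passed (0.16 each). The mean of both shRNAs, -0.39 (adjusted p = 0.62), describes neither group.

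MMP2, the gelatinase, was detected above 4 in KD2 cells alone. It read 3.78 and 3.79 in scramble cells, 3.66 and 3.79 with KD1, and 5.33 and 6.06 with KD2. The KD2 arrays lay above the 4 others, and 1 scramble and 1 KD1 array shared an identical value. The KD2 rise was 3.75-fold (1.91 ± 0.25, limma adjusted p = 0.0080). Since dim values are compressed this fold can understate the rise.

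MMP2 entered the test through these KD2 arrays, so its call is a description. With KD1 the difference was -0.06 ± 0.25 (95% interval -0.70 to 0.59, adjusted p = 0.92). Between the shRNAs it was -1.96 ± 0.25 (adjusted p = 0.0046), a description for the same reason. The KD2 rise ranged from 1.54 to 2.27 with 1 array left out, and it did not pass with no filter (limma adjusted p = 0.058). The other 2 probe sets of MMP2 stood at 2.24 on all 6 arrays. MMP2 is also a gene of fibroblasts. The fibroblast marker COL1A1 read 6.81 and 7.02 with KD2, above 6.20 and 6.40 in scramble cells, while the other 4 markers, COL1A2, DCN, LUM and PDGFRB, did not exceed 2.27 in any group. The summed log2 level of the 5 markers was 15.2 to 15.4 in scramble cells, 15.3 to 15.7 with KD1 and 15.80 to 16.01 with KD2. Since the other 4 were flat or nearly so, this sum follows COL1A1 and is not separate evidence from the list.

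MMP14, the membrane-bound activator of MMP2, was dim. Its brightest probe set read 3.78 and 4.45 in scramble cells, 3.60 and 3.96 with KD1, and 3.70 and 3.72 with KD2. KD1 overlapped scramble, while both KD2 arrays lay just below the lower scramble array. The mean differences were -0.33 with KD1 and -0.40 with KD2 and were not tested. With no filter on dim genes they did not pass (limma adjusted p = 0.83 and 0.64). A second probe set read 3.35 and 3.84 in scramble cells and 2.92 to 3.12 in the 4 knockdown arrays. The other 2 stood near 2.77 and between 2.24 and 2.30.

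**Figure D3:**
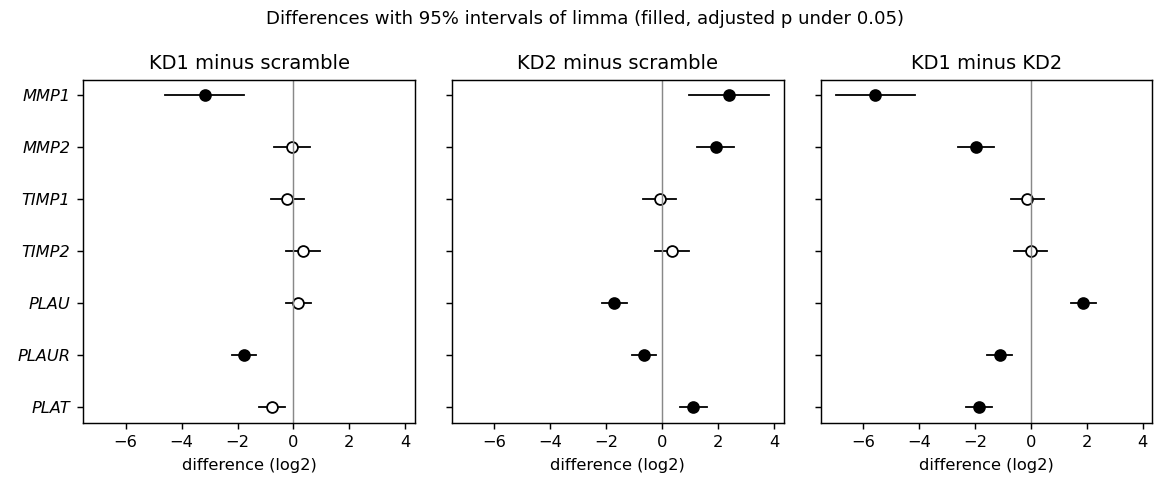
Log2 differences of the 7 tested genes with 95% intervals from limma (horizontal axes), for KD1 minus scramble, KD2 minus scramble and KD1 minus KD2. Filled points have an adjusted p under 0.05. MMP1 lies at -3.18, 2.39 and -5.56 in turn, and the intervals of TIMP1 and TIMP2 cross 0 in every panel.

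Among the inhibitors, TIMP1 and TIMP2 were bright in every group, and neither was called in any comparison of the main model. TIMP1, which is also known to act as a growth factor, read 11.72 and 12.24 in scramble cells, 11.58 and 11.94 with KD1, and 11.75 and 12.02 with KD2. All 3 groups overlapped, and replicate 2 was the higher array in each. The difference was -0.22 (95% interval -0.82 to 0.38, limma adjusted p = 0.59) with KD1 and -0.09 (-0.69 to 0.51, adjusted p = 0.79) with KD2. Between KD1 and KD2 it was -0.13 (-0.73 to 0.47). These intervals leave room for changes of up to 0.82 on the log2 scale.

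TIMP2, the partner of MMP14 in MMP2 activation, read 11.14 and 11.67 in scramble cells, 11.57 and 11.90 with KD1, and 11.61 and 11.89 with KD2. Replicate 2 was again higher in each group, and each knockdown array exceeded the scramble array of its own number. The difference was 0.33 (95% interval -0.27 to 0.93, limma adjusted p = 0.41) with KD1 and 0.35 (-0.25 to 0.95, adjusted p = 0.31) with KD2. With the replicate number as a block, TIMP2 was called higher with KD2 (adjusted p = 0.044) and did not pass with KD1 (0.070).

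A second bright TIMP2 probe set gave smaller values of the same sign, 0.21 and 0.20. The dimmest probe set, with a mean of 7.03, gave -0.26 with KD1 and 0.48 with KD2, so the probe sets of TIMP2 disagree in sign for KD1. TIMP3, an inhibitor that binds to the matrix, stood at 2.24, the lowest value of the table, in all 4 probe sets on all 6 arrays. No difference in TIMP3 was detectable at this signal.

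Over the 7 tested members the median log2 difference was -0.22 with KD1 and 0.35 with KD2, beside 0.0025 and 0.08 over all tested genes. Without MMP2 the members' medians were -0.49 and 0.13. These medians hide the opposite signs of single genes given above.

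For context, 7 lists of neighbouring genes were counted in the same fit: other metalloproteinases, their regulators, other plasminogen genes, ADAM and ADAMTS proteases, cathepsins and their inhibitors, membrane serine proteases, and the AP-1 and ETS factors known to drive many protease genes. The lists too were chosen with earlier results of these data known, so their counts are descriptions. They stand beside 11.5% of all tested genes called with KD1 and 31.0% with KD2 in limma. With the block these shares were 29.6% and 50.6%, and 29.5% and 44.1% of genes had an unadjusted p under 0.05 without it. Of 20 other metalloproteinases, 19 were analysed and 2 were tested, MMP9 and MMP16. The remaining 17 had means below 4. Limma called neither tested gene with KD1 or KD2, and at an unadjusted p under 0.05 it gave 1 rise with KD1 and 2 with KD2. The gelatinase MMP9 read 4.32 and 3.77 in scramble cells, 4.30 and 4.32 with KD1, and 6.04 and 4.88 with KD2. Its KD2 difference of 1.41 ± 0.41 did not pass (limma adjusted p = 0.056), and with the block it did (0.016).

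Of 5 tested regulators of metalloproteinases, 1 was called higher with KD2 and none with KD1 (4 and 2 called with the block). At an unadjusted p under 0.05 limma gave 2 rises with KD2 and 0 changes with KD1. FURIN, the convertase that activates MMP14 and other proteases, read 5.37 and 5.73 in scramble cells, 5.75 and 6.22 with KD1, and 6.43 and 6.90 with KD2. It rose by 1.12 ± 0.26 with KD2 (limma adjusted p = 0.029), and its KD1 difference was 0.44 ± 0.26 (0.33, and 0.027 with the block).

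Of 9 tested plasminogen genes outside the 9 members, 1 rose with KD2 and none was called with KD1 (2 and 3 with the block; 0 rises and 2 falls with KD1 at an unadjusted p under 0.05 in limma). It was S100A10, a subunit of a plasminogen receptor, with 0.66 ± 0.16 (limma adjusted p = 0.033). A dimmer S100A10 probe set had the opposite sign, -0.56, and the mean of both was 0.05 (0.91). Plasminogen itself, PLG, stood at 2.24 on every array.

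Among 9 tested ADAM and ADAMTS genes, 3 rose and 1 fell with KD2, and none was called with KD1 (5 and 2 called with the block; 2 rises and 1 fall with KD1 at an unadjusted p under 0.05 in limma). The median was 0.34 with KD2 and -0.00023 with KD1. ADAM9, a membrane sheddase, read 12.82 and 13.09 in scramble cells, 12.64 and 12.82 with KD1, and 11.05 and 11.12 with KD2. Its fall with KD2 was 3.66-fold (-1.87 ± 0.14, limma adjusted p = 0.0032), while KD1 gave -0.22 ± 0.14 (0.37). ADAM19 rose by 2.11 ± 0.34 with KD2 (0.012) and had 1.23 ± 0.34 with KD1, which passed only with the block (0.084 without, 0.014 with it). ADAM22 rose by 1.31 ± 0.22 with KD2 (0.014). The third rise was in ADAMTS6.

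Of 12 tested cathepsins and cystatins, KD2 raised 4 and lowered 1, and KD1 raised 1 and lowered 1 (7 called with each in the block). CTSA, a lysosomal carboxypeptidase, rose with each, by 0.82 ± 0.17 with KD1 (limma adjusted p = 0.043) and by 0.89 ± 0.17 with KD2 (0.017). The lysosomal aspartic protease CTSD rose by 0.89 ± 0.15 with KD2 (0.014), and the cathepsin inhibitor CSTB rose by 0.62 ± 0.14 (0.027). By the mean of all its probe sets CSTB gave 0.29 with KD2 and did not pass (limma adjusted p = 0.061). Its other probe set was dim, with a mean of 3.69. With the block CSTB (0.50, adjusted p = 0.026) and CTSV (0.78, adjusted p = 0.0089) were also called higher with KD1. CTSV read 8.42 and 8.01 in scramble cells, 9.28 and 8.70 with KD1, and 7.06 and 6.61 with KD2, and with KD2 it fell by 1.38 ± 0.28 (0.022). CTSH fell by 0.82 ± 0.17 with KD1 (0.045), and with KD2 it had 0.59 ± 0.17 (0.053, and 0.010 with the block). The fourth rise with KD2 was in CST3.

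Of 2 tested genes among membrane serine proteases and their inhibitors, SPINT2 was called. SPINT2, an inhibitor of hepatocyte growth factor activator and of membrane serine proteases, read 4.84 and 4.82 in scramble cells, 4.37 and 4.50 with KD1, and 6.66 and 6.78 with KD2. It rose 3.71-fold with KD2 (1.89 ± 0.11, limma adjusted p = 0.0025). With KD1 it had -0.39 ± 0.11, which passed only with the block (0.092 without, 0.039 with it).

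Of 12 tested AP-1 and ETS genes, KD1 lowered 2 and KD2 lowered 1, and neither raised any (6 and 4 called with the block). The medians were -0.57 with KD1 and -0.29 with KD2. At an unadjusted p under 0.05, limma gave 1 rise and 3 falls with KD1, and 0 rises and 3 falls with KD2. ETV1 and ETV5, ETS factors, fell by 1.04 ± 0.18 and 1.01 ± 0.19 with KD1 (limma adjusted p = 0.030 and 0.035). With KD2 they had -0.52 and -0.35, which did not pass; ETV1 did with the block (0.0088). The mean of all ETV1 probe sets gave -0.37 with KD1 (0.064). FOSL1, an AP-1 subunit, read 10.73 and 10.05 in scramble cells, 9.90 and 8.48 with KD1, and 8.71 and 7.49 with KD2. With KD2 it fell by 2.29 ± 0.63 (adjusted p = 0.048), and replicate 2 was the lower array in every group. With KD1 it had -1.20 ± 0.63 (0.28, and 0.017 with the block).

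For ADAMTS6 and CST3 the alternative settings are not given. In the other named list genes, no difference called with KD1 or KD2 changed sign without 1 array. The KD2 difference ranged from -2.01 to -1.74 for ADAM9 and from 1.83 to 1.95 for SPINT2. With KD1 the ranges were 0.66 to 0.97 for CTSA and -0.99 to -0.64 for CTSH. They were -1.20 to -0.89 for ETV1 and -1.16 to -0.86 for ETV5. With no filter on dim genes the KD2 calls of ADAM9 (limma adjusted p = 0.022) and SPINT2 (0.011) passed. So did SPINT2 in the mean of both shRNAs (0.046), and no other call against scramble of these genes did.

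**Figure D4:**
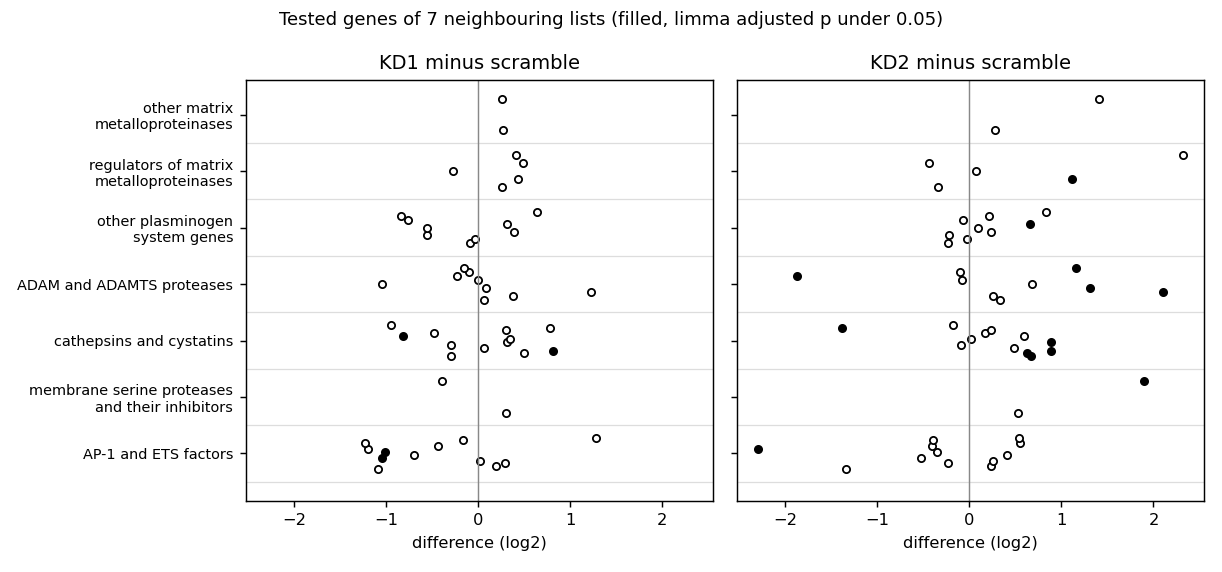
Log2 differences from scramble (horizontal axes) of each tested gene in 7 lists around the 9 genes, with KD1 in the left panel and KD2 in the right. Filled points have a limma adjusted p under 0.05. With KD2 FOSL1 lies furthest left among called genes at -2.29 and ADAM19 furthest right at 2.11.

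The genes whose profiles were nearest to each called member were found from the root mean square difference over the 6 arrays, each profile taken relative to its own scramble mean. For PLAUR they were TMEM19 (0.14 on the log2 scale), GPR161 (0.14) and SLC20A1 (0.15). For PLAU they were ZNF621 (0.10), CEP97 (0.14) and OXSR1 (0.15), and for PLAT they were FSD1 (0.08), GPATCH11 (0.10) and ANKRD39 (0.10). MMP2 was nearest to NDRG4 (0.15), PDGFD (0.18) and MGAT5B (0.19). The genes nearest to MMP1, RAB39B, CRH and TNIK, differed from it by 0.62, 0.70 and 0.83. Each was also lower with KD1 and higher with KD2: -3.11 and 1.49 for RAB39B, -3.49 and 3.02 for CRH, and -2.10 and 1.82 for TNIK. The measure is not scaled to the size of a change, so these distances cannot be set against those of members that changed less. None of the 15 genes is one of the 9 members, so no member was among the 3 nearest of another.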

How the data were processed

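The deposited values are log2 expression values that the authors made with GCRMA, per the submitters' processing notes (version not given in the sources used here); the log2 scale is read from their range. GCRMA corrects background, normalizes between arrays and summarises probes, and it compresses dim probe sets: 37.7% to 38.7% of an array's values stood at the lowest value, 2.24. Labelled cRNA came from 250 ng of total RNA, per the labels. The values were used as deposited. Of 54675 probe sets, 62 were controls, 1801 carried several symbols and 11721 none. These were not named. Gene identifiers matched RefSeq for 41037 probe sets.

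Groups were compared with limma 3.58.1 in R 4.3.3, two-sided, in 1 model over all 6 arrays (3 residual and 2.09 prior degrees of freedom). It was tested on simulated data. Precision is limited by having 2 arrays a group: the median SE of an shRNA minus scramble was 0.17. Both comparisons share the scramble arrays. Members and lists were chosen with earlier results of these data known. Named genes were the members, KDM5A, up to 3 called genes per list and comparison with the smallest adjusted p (or the largest change where none was called), and the 3 nearest profiles per called member. ADAMTS6 and CST3 were named after their values were seen. Deviations of same-numbered arrays, numbered in the titles, correlated at 0.75, 0.51 and 0.53 in the 3 pairs of groups, so a fit that blocks on that number is given beside the main one where it changed a call of a member, or of a named gene in a comparison printed for it. Alternatives were the block, no filter or one at 6, the mean of a gene's probe sets, no cross-hybridising (_x_at) probe sets, centred arrays, a trended prior, all probe sets as rows, and each array left out.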

Additional observations from a re-analysis of the deposited data

Results flagged for a closer look

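The effects of KD1 and KD2 differed, by limma's contrast of KD1 minus KD2 at an adjusted p under 0.05, in 5 of the 7 tested members and in KDM5A. They also differed in 7 genes named from the neighbouring lists, most of which were named for a small adjusted p against scramble. The log2 differences were -5.56 for MMP1, -1.96 for MMP2, 1.87 for PLAU, -1.12 for PLAUR and -1.87 for PLAT. KDM5A stood 0.65 higher with KD1. In the lists they were -1.23 for ADAM22, 1.65 for ADAM9, -0.58 for CTSD, -1.41 for CTSH, 2.16 for CTSV, -0.66 for ETV5 and -2.28 for SPINT2. The lists held further genes called between the shRNAs: BSG, RECK, PLGRKT, ADAM23, ADAMTS6, CST3, CTSL, ELK3, ETV4 and JUN. With the replicate number as a block, ADAM19 (-0.88, adjusted p = 0.015), ETV1 (-0.52, 0.0067), FOSL1 (1.09, 0.0088), FURIN (-0.68, 0.0034), MMP9 (-1.15, 0.025) and S100A10 (-0.35, 0.023) were called as well. The value of MMP2 is a description, since the gene entered the test through its KD2 arrays. Between the shRNAs 41.1% of all tested genes were called, so such differences were common on these arrays. With KD1 the 2 members that fell included MMP1, which rose with KD2.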

How the results depend on the processing

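Members kept their direction in every setting that used all 6 arrays. Counts in limma changed most with the block, the filter and the arrays used. With the replicate number as a block, which pairs the samples by number, calls in the mean comparison were 3670 genes and 4 members (1318 and 2 without it), 3117 genes with KD1 (1213) and 5324 with KD2 (3264). It added the member calls of MMP2 and TIMP2 in the mean, PLAT with KD1 and TIMP2 with KD2, and changed no other member call. That call of MMP2 is a description, since the gene entered the test through its KD2 arrays. With no filter on dim genes 332 genes and 0 members were called in the mean (3 members at an unadjusted p under 0.05), 311 and 0 with KD1 (3 members likewise), 1470 and 1 with KD2, and 2477 genes between the shRNAs (4327 with the filter). A filter at 6 left 5 members tested, without MMP1 and MMP2, of which 1 was called with KD1, 3 with KD2 and 3 between the shRNAs. Of all 8867 genes tested at this filter, 12.8% were called with KD1, 34.1% with KD2 and 44.2% between the shRNAs.

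Leaving out 1 array gave 0 to 457 genes and 0 to 1 members in the mean, 0 to 191 and 0 to 1 with KD1, 624 to 2928 and 2 to 4 with KD2, and 1874 to 3718 and 4 to 5 between the shRNAs. Counts of 0 genes arose in the mean without either scramble or either KD2 array (2247 to 2818 genes at an unadjusted p under 0.05) and with KD1 without either scramble array (2306 and 2370).

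Signs turned for some values that were not called, among them TIMP1 in every comparison. Leaving out 1 array moved MMP1 from -1.02 to 0.24 and TIMP1 from -0.41 to 0.10 in the mean. With KD1 it moved MMP2 from -0.12 to 0.0073, TIMP1 from -0.48 to 0.036, ADAM22 from -0.16 to 0.33 and MMP9 from -0.0087 to 0.54. With KD2 it moved TIMP1 from -0.35 to 0.16. For KD1 minus KD2 it moved TIMP1 from -0.31 to 0.053, TIMP2 from -0.18 to 0.15, CSTB from -0.26 to 0.019 and CTSA from -0.23 to 0.081. By the mean of all probe sets ADAM22 with KD1 gave -0.27 and S100A10 gave 0.099 for KD1 minus KD2. The cause was not tested. Signal limits MMP14, TIMP3, MMP2 outside KD2 and MMP1 with KD1, which lay near the lowest values.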
